A study of Mus musculus with 25 samples.

Results

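The contact landscape of 1 H3K27ac HiChIP library of CD8+ T cells was described on its own, without a comparison to other libraries. The cells were CD8+ T cells from spleens of wild-type mice of strain C57BL/6J that had been activated in culture for 2 days, rested for 4 h and given no further treatment. The protocol names IL-2 or antibodies to CD3 and CD28 as the stimulus and does not say which was used for this library. By its label the library is a control, and a separate wild-type library carries the label IL2. All 72698 bin pairs listed for the library were taken, of 121571 bin pairs listed in any of the 6 HiChIP libraries of the series, which also holds 19 ChIP-seq samples that were not analysed here. The age of the mice and the number pooled were not given in the sources used here. There is 1 library for this group, so no value has a replicate check, and the intervals given are exact Poisson or exact binomial 95% intervals that cover counting error only. Reads amplified by PCR without molecular identifiers are not independent molecules, so these intervals are a lower limit on the uncertainty.

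HiChIP cuts and rejoins DNA inside fixed nuclei, so that stretches lying close together in space become 1 molecule, and then enriches the joined molecules with an antibody. H3K27ac, acetylation of lysine 27 of histone H3, marks active promoters and enhancers, and the method therefore counts contacts among active elements. Enhancers can act on promoters over long distances by looping, and dense clusters of H3K27ac-marked bins, often called super-enhancers, are typical of genes that define a cell type. In CD8+ T cells such genes include the T cell receptor and its signalling kinases, the receptors of the cytokines IL-2, IL-4 and IL-7, and the transcription factors that hold cells in a resting state or release them from it.

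The genome was divided into 1 kb bins, and each pair carries a contact count, the number of read pairs that join its bins. A partner of a bin is a bin it is paired with, and the coverage of a bin is the number of reads the deposited table gives for it. The library listed 33492 anchor bins and 2619773 contacts. No pair had fewer than 20 contacts and none was closer than 5 kb. A pair that is not listed is below these limits, joins a bin outside the authors' peaks or was left out by the loop caller, and is not a pair with 0 contacts. Since H3K27ac enrichment and contact frequency both raise the count of a pair, they cannot be told apart here.

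Promoter bins were the bins that overlap the RefSeq promoter window of a gene, from 250 bases before to 50 bases after a transcription start. Of 21887 protein-coding genes on GRCm38.p6, 17492 had such a window. For the other 4395, the bins of both annotated gene ends were used in its place, and their strand is not in the sources used here. Among them are B4galnt1, Myc, Actb, Cd8b1, Il2rb, Ccr7, S1pr1, Cd4, Ikzf2, Tyrobp, Spi1 and Cd14. The promoter contacts given for such genes can include those of the end away from the start. A gene was its annotated interval from end to end.

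The 250 bases before the start are shown for 8 promoters, from the RefSeq windows of GRCm38.p6. They are the first of the 20 promoters with most contacts whose stretch lies outside every annotated gene. Each is written from 5′ to 3′ on the strand of its gene, and capitals mark matches to 6 motifs that were searched on both strands.
Satb1, chr17:51833291-51833540, minus strand: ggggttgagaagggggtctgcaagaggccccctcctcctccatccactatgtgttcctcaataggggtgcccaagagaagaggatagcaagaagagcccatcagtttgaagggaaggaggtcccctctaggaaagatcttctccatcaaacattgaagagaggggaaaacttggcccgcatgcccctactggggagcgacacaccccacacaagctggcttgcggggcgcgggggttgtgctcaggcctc
Gimap1, chr6:48738797-48739046, plus strand: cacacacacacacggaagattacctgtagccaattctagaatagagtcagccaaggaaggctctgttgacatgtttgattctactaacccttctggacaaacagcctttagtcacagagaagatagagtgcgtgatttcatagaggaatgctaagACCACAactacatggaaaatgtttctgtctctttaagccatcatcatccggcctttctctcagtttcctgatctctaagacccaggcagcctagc
Nsmce1, chr7:125491444-125491693, minus strand: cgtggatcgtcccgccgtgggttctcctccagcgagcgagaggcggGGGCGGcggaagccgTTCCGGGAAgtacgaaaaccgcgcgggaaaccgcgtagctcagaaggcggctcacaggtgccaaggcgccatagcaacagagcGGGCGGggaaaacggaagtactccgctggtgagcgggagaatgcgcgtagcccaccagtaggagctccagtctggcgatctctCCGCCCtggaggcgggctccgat
Tnf, chr17:35202008-35202257, minus strand: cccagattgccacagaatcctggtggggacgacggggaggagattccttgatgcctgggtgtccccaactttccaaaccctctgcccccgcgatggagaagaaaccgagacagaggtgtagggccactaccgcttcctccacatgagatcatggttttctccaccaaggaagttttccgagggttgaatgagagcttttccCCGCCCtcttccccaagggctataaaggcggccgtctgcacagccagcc
Gimap3, chr6:48770852-48771101, minus strand: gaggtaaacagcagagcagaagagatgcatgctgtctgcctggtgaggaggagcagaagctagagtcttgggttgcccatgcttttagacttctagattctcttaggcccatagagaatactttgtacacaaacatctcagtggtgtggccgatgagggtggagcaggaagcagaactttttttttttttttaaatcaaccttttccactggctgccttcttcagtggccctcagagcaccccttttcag
Ddit4, chr10:59951771-59952020, minus strand: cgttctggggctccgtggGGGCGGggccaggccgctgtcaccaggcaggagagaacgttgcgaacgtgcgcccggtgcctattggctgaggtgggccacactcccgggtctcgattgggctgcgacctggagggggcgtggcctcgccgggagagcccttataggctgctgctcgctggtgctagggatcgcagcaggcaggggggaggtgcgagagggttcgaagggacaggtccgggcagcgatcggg
Il4ra, chr7:125552021-125552270, plus strand: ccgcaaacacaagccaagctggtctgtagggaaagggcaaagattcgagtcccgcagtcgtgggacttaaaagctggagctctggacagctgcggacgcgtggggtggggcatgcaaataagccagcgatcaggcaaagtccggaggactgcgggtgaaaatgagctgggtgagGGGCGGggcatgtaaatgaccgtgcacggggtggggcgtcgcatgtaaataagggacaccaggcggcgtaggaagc
Ubald2, chr11:116433844-116434093, plus strand: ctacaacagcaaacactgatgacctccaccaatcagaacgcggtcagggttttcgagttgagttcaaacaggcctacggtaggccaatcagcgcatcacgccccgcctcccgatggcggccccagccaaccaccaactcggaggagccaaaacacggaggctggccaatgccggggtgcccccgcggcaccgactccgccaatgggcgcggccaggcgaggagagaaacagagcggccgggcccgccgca
The motifs were CCGGAAG (ETS factors), TGTGGT (RUNX factors), TTCNNNGAA (STAT factors), TGANTCA (AP-1), CACGTG (E-box) and GGGCGG (SP and KLF factors). In the Nsmce1 stretch there are 3 GGGCGG matches and 1 TTCNNNGAA match, in Tnf, Ddit4 and Il4ra 1 GGGCGG match each, in Gimap1 1 TGTGGT match, and in Satb1, Gimap3 and Ubald2 none of the 6. The printed Satb1 stretch lies before its outermost start, in a bin with 1340 contacts and 41 partners, beside the bin with 5990 contacts. Likewise, the Tnf stretch lies in the bin beside the Tnf bin with 3808 contacts. Most of the Gimap1 stretch lies beside the bin with 4574 contacts, and most of the Ubald2 stretch beside the bin with 3051. Parts of the Gimap3 and Ddit4 stretches also lie in a neighbouring bin. Over the same 250 bases of 1 window per gene, GGGCGG was in 42.7% of all 17492 genes, in 61.7% of the 4244 in a listed bin and in 36.7% of the other 13248. For CCGGAAG these shares were 9.28%, 17.5% and 6.64%, and for TGTGGT 12.6%, 11.0% and 13.1%. For TTCNNNGAA they were 6.63%, 5.63% and 6.94%, for TGANTCA 6.16%, 3.79% and 6.92%, and for CACGTG 6.60%, 9.07% and 5.81%. The median number of CG dinucleotides was 17 in windows of listed bins and 6 in the others, and the shares of the GC-rich motifs move with it; the part of base composition was not tested. A window was given for 18 of the 20 promoters with most contacts. Of these, 9 held GGGCGG, 3 TGTGGT, 1 TTCNNNGAA, 1 CACGTG and none CCGGAAG or TGANTCA. A match is a description of letters and not a bound site.

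Pair counts were dominated by short distances and low counts. The contact count of a pair ranged from 20 to 468, with a median of 29 (quartiles 23 and 40) and a mean of 36.0 ± 21.9 (SD over the 72698 pairs). Of all pairs, 52.2% had 20 to 29 contacts, at the lower limit of listing. At the other end, 1617 pairs (2.22%) had at least 100 contacts and together held 8.28% of all contacts. The median distance was 15 kb (quartiles 8 and 30 kb), the 90th percentile 59 kb, the 99th 193 kb and the longest 874 kb. Pairs of 5 to 9 kb made up 31.3% (interval 31.0 to 31.7%) and had a median of 33 contacts. Pairs of 100 to 199 kb made up 2.89% (2.77 to 3.02%) and had a median of 24 contacts. Only 31 pairs, 0.0426% (0.0290 to 0.0605%), spanned 500 kb or more.

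**Figure D1:**
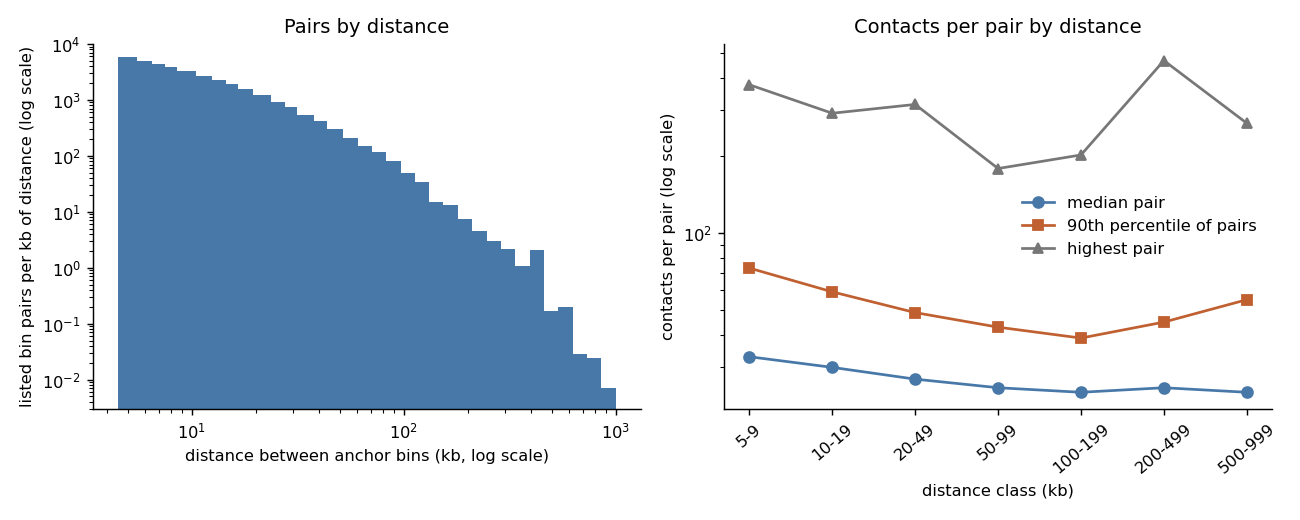
Left, listed bin pairs per kb of distance against the distance between their bins (both axes log scale); right, the median, 90th percentile and highest contact count of a pair in each distance class (contacts, log scale). The median goes from 33 contacts at 5 to 9 kb to 24 at 500 to 999 kb, while the highest pair, 468 contacts, lies in the class of 200 to 499 kb.

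By position, 28604 pairs (39.3%, interval 39.0 to 39.7%) had a promoter bin at 1 or both ends. Of the pairs, 12.1% joined a promoter to a bin outside every protein-coding gene, 21.5% a promoter to a gene body and 5.76% joined promoter bins. Both anchors lay in 1 gene in 23688 pairs (32.6%), whose median distance was 10 kb. Pairs that joined a promoter to a bin outside genes spanned 100 kb or more in 7.35% of cases, against 3.83% of all pairs. The share was similar, 6.87%, for pairs joining promoter bins, and 5.82% for those joining a gene body to a bin outside genes. In the remaining classes it was 1.61 to 3.12%, and for pairs with both anchors in 1 gene 0.637%. Chromosome 11 held the most pairs, 9163 (12.6%), or 5.69 per protein-coding gene, and the X chromosome had 658 pairs, or 0.681 per gene. The labels do not give the sex of the mice.

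A few bins had many partners. The median anchor bin had 2 partners, and 37.7% of bins had 1. At the 99th percentile a bin had 32 partners, 79 bins had at least 50, and the highest had 129. Promoter bins had a median of 3 partners and a 99th percentile of 39, and bins outside genes a median of 2 and a 99th percentile of 32. Of the 79 bins with at least 50 partners, 29 were promoter bins, 37 other bins of gene bodies and 13 bins outside genes.

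Promoter contacts were ranked first. A promoter bin was listed for 5095 genes (23.3% of 21887), which formed 4625 features because neighbouring genes with the same pairs were counted as 1. The median promoter had 107 contacts (quartiles 44 and 288) with 3 partner bins. At the upper end, 263 promoters (5.69%) had at least 1000 contacts and 33 had at least 50 partner bins.

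The promoter with the most contacts and the most partners was that of Satb1, which encodes a chromatin organiser needed for T cell development. Its 4 listed promoter bins held 8505 contacts (8325 to 8688) with 130 partner bins. Second by contacts was B4galnt1, which encodes an enzyme of ganglioside synthesis, with 5972 contacts (5821 to 6125) and 79 partners. These sums also depend on the number of listed promoter bins, 4 for Satb1, 3 for Septin9 and 1 for B4galnt1 and Rbpj. The Satb1 bin with 129 partners alone had 5990 contacts, within the interval of B4galnt1. Septin9, which encodes a septin of the cytoskeleton, had 5659 contacts (5513 to 5808) and 71 partners. The intervals of B4galnt1 and Septin9 did not overlap, while that of Septin9 overlapped that of Gimap1, a GTPase of the lymphocyte survival family, with 5588 contacts (5442 to 5736). Atp6v1g2, which encodes a subunit of the vacuolar proton pump and lies in the Tnf region, had 5275 contacts (5134 to 5419). Rbpj, the DNA-binding factor of Notch signalling, had 5243 contacts (5102 to 5387), within the interval of Atp6v1g2, but with 119 partners against 51. Nsmce1, a subunit of a DNA repair complex, had 5077 contacts (4938 to 5219). The promoter of the cytokine gene Tnf followed with 4891 (4755 to 5030), and those of Gimap3 and of Ddit4, an inhibitor of the growth kinase mTORC1, with 4411 (4282 to 4543) and 4410 (4281 to 4542). The latter values did not differ beyond counting error. Ranks 11 to 20 held between 4366 and 3228 contacts.

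By partners the order changed in part. Satb1 (130) and Rbpj (119) stood first, and others of the first 10 were Gimap1 (88), B4galnt1 (79), Nsmce1 (78), Gimap3 and Il4ra (75 each), Septin9 (71) and Cd47 (67). Il4ra encodes the alpha chain of the IL-4 receptor, and Cd47 a surface protein that inhibits uptake by phagocytes. The promoters ranked 11 to 20 had between 67 and 55 partners. Among the 20 promoters with most contacts, 11 were also among the first 20 by partners.

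**Figure D2:**
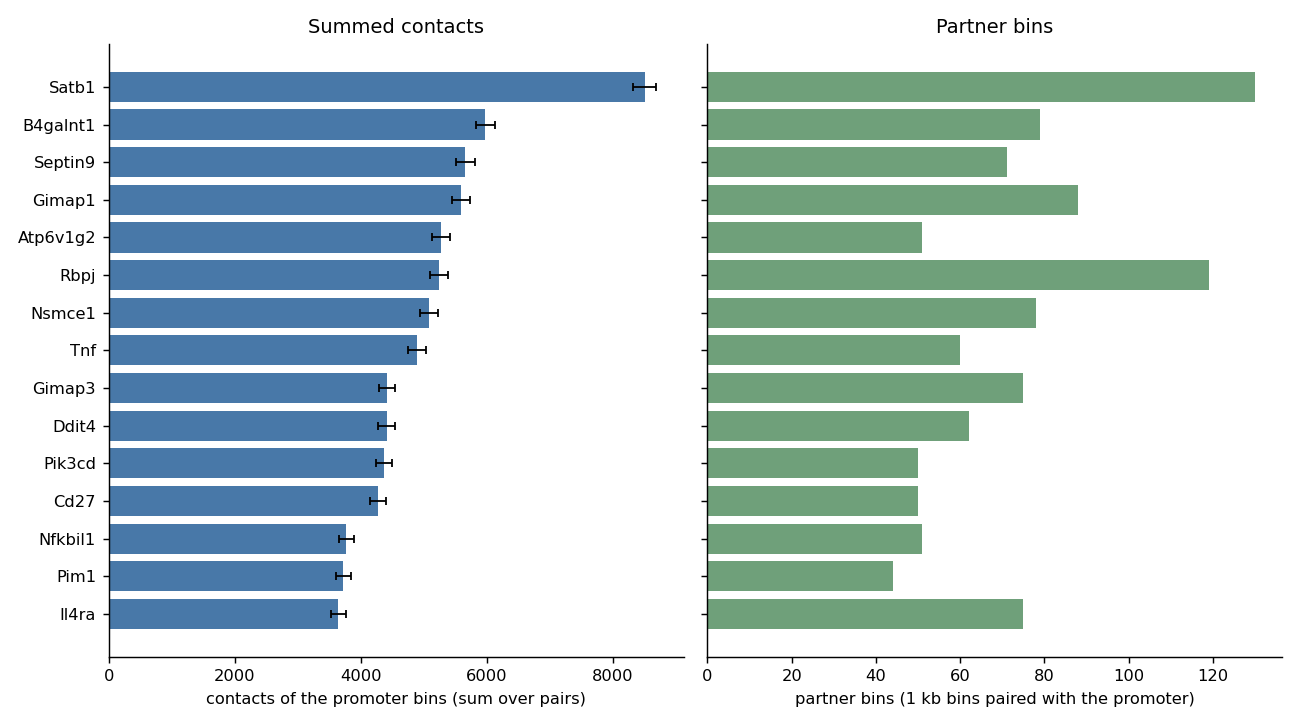
The 15 promoters with most contacts; left bars, contacts summed over all pairs of the promoter bins with exact Poisson 95% intervals; right bars, distinct 1 kb partner bins. Satb1 stands first in both panels with 8505 contacts and 130 partners, and Rbpj is sixth by contacts but second by partners with 119.

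For Satb1, on chromosome 17 and read towards lower coordinates, 95 of the 130 partners lay upstream of the gene, up to 629 kb away, and each of these was outside every protein-coding gene. The other 35 lay inside Satb1 itself. When partner bins with gaps of up to 10 kb were joined, the upstream contacts gathered in clusters. A small one had 236 contacts in 6 bins at 21 to 26 kb, the next 1254 contacts in 26 bins at 41 to 77 kb, and another 537 contacts in 14 bins at 230 to 248 kb. The cluster at 287 to 352 kb (chr17:52119001-52185000) had 2128 contacts in 41 bins, more than any of these nearer ones. Its strongest bin, 318 kb from the promoter with 171 contacts summed over the promoter bins, overlaps the noncoding transcript Gm19585. The cluster around the promoter itself, up to 47 kb away and mostly inside the gene, was larger, with 3747 contacts in 36 bins.

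Of the 119 partners of Rbpj, 112 lay upstream of its promoter bin, which lies inside the annotated gene, with 4772 of its 5243 contacts, and the farthest was 238 kb away. Of the 119, 24 lay inside the gene, on either side of that bin, and the other 95 outside every protein-coding gene. A cluster of 49 bins at 139 to 212 kb (chr5:53378001-53452000) held 2049 contacts with the promoter, in a stretch without an annotated gene of any kind. This stretch was itself among the 10 merged loci with most contacts, given below. The cluster around the promoter bin, up to 68 kb away, held more contacts than the distal one, 2305 in 42 bins. The strongest single partners, with 120 contacts each, lay 5 and 6 kb downstream inside the gene.

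Irf2bp2, a co-regulator of transcription, had 65 partners and 2888 contacts. Its partners included 31 bins at 228 to 283 kb upstream (chr8:126821001-126877000) with 1098 contacts and at most 82 in a bin. Nearer clusters had fewer bins but stronger ones. At 4 to 11 kb downstream, 7 bins had 656 contacts and at most 173 in a bin. At 10 to 36 kb upstream, 11 bins had 567 and at most 107. That distal stretch is covered by noncoding transcripts (A630001O12Rik and Gm31718). Its bin at chr8:126849001-126850000 had 68 partners of its own, 63 of them outside protein-coding genes, and shared 80 contacts with the Irf2bp2 promoter.

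B4galnt1 had its contacts on both sides within a shorter range. Its strand is not in the sources used here, so sides are given by coordinates. Toward lower coordinates it had 47 partners and 4360 contacts, up to 102 kb, and toward higher ones 32 partners and 1612 contacts, up to 167 kb. The strongest pair joined it to the bin 30 kb below (chr10:127135001-127136000), a bin outside genes 13.8 kb from Os9, with 316 contacts (282 to 353). It also touched the promoters of Slc26a10 (66 contacts), Dtx3 (58), Mbd6 (53) and Mars1 (52).

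Nsmce1 and Il4ra contacted each other. The promoters of these genes shared 350 contacts at about 61 kb, of which 178 (153 to 206) were in 1 pair of bins, 7.12 times the median of pairs at that distance. Nsmce1 had 42 partner bins with 2312 contacts from 47 to 119 kb upstream, across Il4ra and Il21r, which encodes the IL-21 receptor. The Il4ra promoter in turn had 37 partner bins with 1987 contacts at 38 to 83 kb upstream, over Nsmce1 and the stretch beside it. It had 39 contacts with the Il21r promoter.

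**Figure D3:**
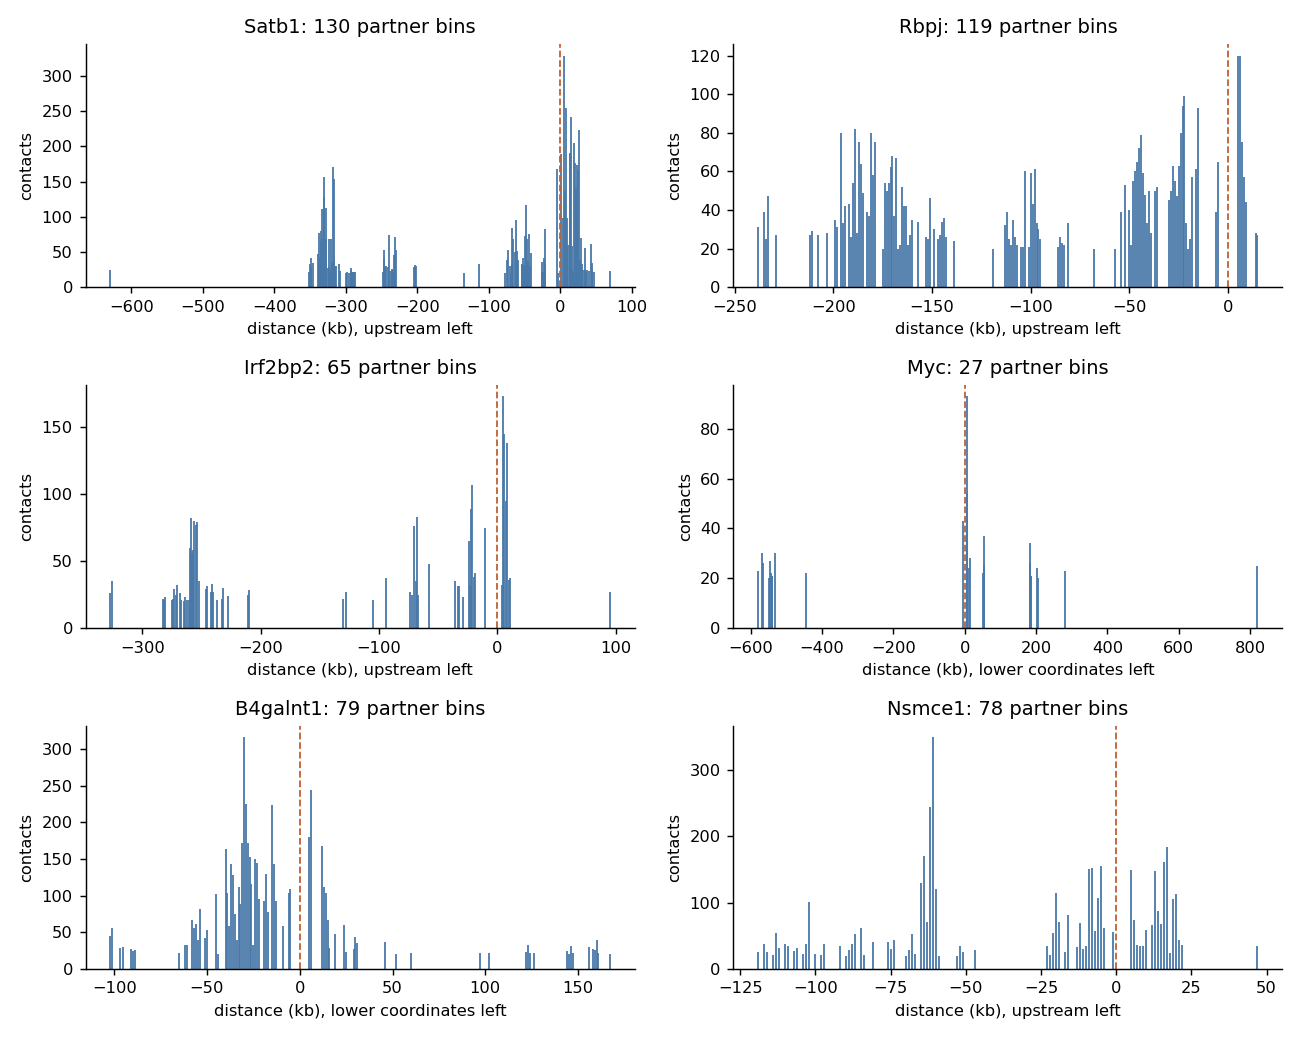
Contacts of each partner bin (vertical lines) against its distance in kb from the main promoter bin (dashed line at 0) for Satb1, Rbpj, Irf2bp2, Myc, B4galnt1 and Nsmce1; upstream of the promoter bin is left, or lower coordinates where the strand is not known. Satb1, Rbpj and Irf2bp2 show distal clusters on the upstream side, at 287 to 352, 139 to 212 and 228 to 283 kb, whereas the contacts of B4galnt1 lie within 167 kb on both sides, Nsmce1 peaks at the Il4ra promoter with 350 contacts, and Myc has 27 partners at up to 821 kb.

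The promoters of the Gimap cluster on chromosome 6 contacted one another. The Gimap1 promoter had 283 contacts with that of Gimap3, 209 with Gimap7, 158 with Gimap5, 149 with Gimap8 and 147 with Gimap6. Of its 88 partners, 11 were promoter bins and 40 lay outside protein-coding genes. Most partners of both Gimap1 and Gimap3 lay at lower coordinates. For Gimap1, on the plus strand, 67 of the 88 were upstream. For Gimap3, on the minus strand, 68 of its 75 partners were downstream, toward the other family members. A bin inside Gimap9 (chr6:48677001-48678000) had 89 partners, among them promoter bins of 7 family members, with 234 contacts for Gimap8 and 191 for Gimap3.

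In the Tnf region on chromosome 17, which lies in the major histocompatibility complex, promoters and gene bodies of Tnf, the lymphotoxin genes Lta and Ltb, and their neighbours were joined. The Tnf promoter had 454 contacts with a bin in Ltb 6 kb away, 328 of them (293 to 365) in 1 pair of bins. It had 365 contacts with the promoter of Atp6v1g2 and 240 with that of Nfkbil1. The Atp6v1g2 promoter had 536 contacts with a bin inside Ddx39b, an RNA helicase gene, and 210 with the promoter of H2-D1, a class I antigen-presenting molecule. Since several promoters of this region share bins or pairs, their sums are not independent of each other.

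Over whole gene bodies, which count every pair with an anchor in the annotated interval, the order differed. An anchor lay in 6268 genes (28.6%), whose median was 151 contacts. Septin9 led with 25480 contacts (25168 to 25795), and all of its 634 pairs stayed inside the gene. Nfkbil1, which overlaps Atp6v1g2 and encodes a protein related to inhibitors of NF-kB, had 15027 (14788 to 15269). It differed from Septin9 in that 9.23% of its pairs were internal. Bach2, a repressor that restrains effector differentiation, had 14405 contacts (14171 to 14642), with 96.4% of its pairs internal. Rbpj had 14133 (13901 to 14368), Satb1 13942 (13712 to 14175) and Fli1, an ETS family factor, 13863 (13633 to 14096), and these 3 intervals overlapped. Rnf43, a ubiquitin ligase that limits Wnt receptors, had 13046 (12823 to 13272). Pik3cd, the delta catalytic subunit of PI3 kinase, had 12964 (12742 to 13189), Hemk1, a methyltransferase gene, 12856 (12635 to 13080), and Foxp1, a factor that maintains quiescence of T cells, 12757 (12537 to 12980). The genes ranked 11 to 20, from Cish to Lcp2, had 12710 to 9851.

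Length and sharing both enter these sums. Foxp1 had 21.4 contacts per kb of gene, and Hemk1, in a much shorter interval, 963. Per kb, over genes of at least 5 kb, the first were Cish (2075 contacts per kb), a feedback inhibitor of cytokine signalling, Clec2d (1919), B4galnt1 (1637), the survival kinase gene Pim1 (1292) and Gimap7 (1091). Only 5 of the first 20 genes by contacts were among the first 20 per kb. Overlapping genes share pairs, as Tg and Sla do on chromosome 15 (12193 and 11677 contacts), where Sla, an adaptor that dampens T cell receptor signalling, lies inside the interval of the thyroglobulin gene Tg.

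By partner bins outside the gene, Satb1 and Rbpj led with 96 each. Gimap9 (91), Gimap1 (90), B4galnt1 (81), Ddx39b (79), Ltb and Gimap3 (73 each), Socs1 (69) and Irf2bp2 (68) followed, and ranks 11 to 20 had 65 to 56. Socs1 encodes a suppressor of cytokine signalling through JAK kinases. Only 4 genes were among the first 20 by contacts and by partners.

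Single bins gave the same leaders with some additions. The Satb1 promoter bin (chr17:51832001-51833000) had 129 partners and the Rbpj promoter bin (chr5:53590001-53591000) 119. Next was a bin inside Cdk17, a cyclin-dependent kinase gene, with 92 partners and 4271 contacts (chr10:93161001-93162000), of which 66 partners lay at higher coordinates, up to 292 kb. The Gimap9 bin named above (89) and the Gimap1 promoter bin (87) came next. A second bin of Rbpj, next to its promoter, had 80. A bin outside genes had 80 as well, 76.3 kb from Chd2, a chromatin remodeller gene (chr7:73618001-73619000); 74 of these partners were at lower coordinates, and the Chd2 promoter took 104 of its 5240 contacts. The B4galnt1 promoter bin had 79, a bin inside Ddx39b 78 and a bin of Satb1 next to its promoter 75. Of the first 20 bins by partners, 10 were promoter bins, and the range from the 11th to the 20th was 75 to 67.

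Coverage ranked bins in another order. The median anchor bin had 851.5 reads (quartiles 450 and 1826), and the highest 21484. Across the 33492 bins, coverage and the number of partners had a Spearman correlation of 0.638, a description over bins that share 1 library. Only 5 bins were among the first 20 of both orders. The highest coverage, 21484 reads, was at the promoter of Prkd2, protein kinase D2 (chr7:16843001-16844000), which had 19 partners and 1297 contacts. The B4galnt1 promoter bin had 18798 reads with 79 partners, and a bin inside Fli1 (chr9:32540001-32541000) 17235 with 58. A bin between Supt4a and Tspoap1 (chr11:87751001-87752000) had 16938 reads with 39 partners, and a bin in Vars, the valyl-tRNA synthetase gene (chr17:35001001-35002000), 16445 with 63. A bin 1.5 kb from Cdkn1b, which encodes the cell cycle inhibitor p27 (chr6:134927001-134928000), had 16214 reads with 18 partners, while the Satb1 promoter bin had 16143 with 129. The Cdk17 bin had 15078 reads. The shared promoter bin of Ewsr1 and Rhbdd3 (chr11:5099001-5100000) had 14451 with 10 partners, and that of Plekhj1 and the splicing factor gene Sf3a2 (chr10:80798001-80799000) 14366 with 44. Bins of similar coverage thus differed widely in partners, from 10 in the Ewsr1 bin to 129 in the Satb1 bin. Ranks 11 to 20 had 13956 to 12778 reads.

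At or above the 99th percentile of coverage there were 335 bins, of which 201 (60%) were promoter bins. Their partners ranged from 1 to 129, with a median of 24. In this set, 5 bins had 1 partner, among them the promoter bins of Prdm15, Cdc5l, Ttll11 and Arhgap11a, which were picked for this value after it was seen. Listed contacts made up a median of 8.82% of the coverage of a bin, 39.3% at the 99th percentile, 37.1% in the Satb1 promoter bin, 6.04% in the Prkd2 bin and 2.86% in the Ewsr1 bin.

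**Figure D4:**
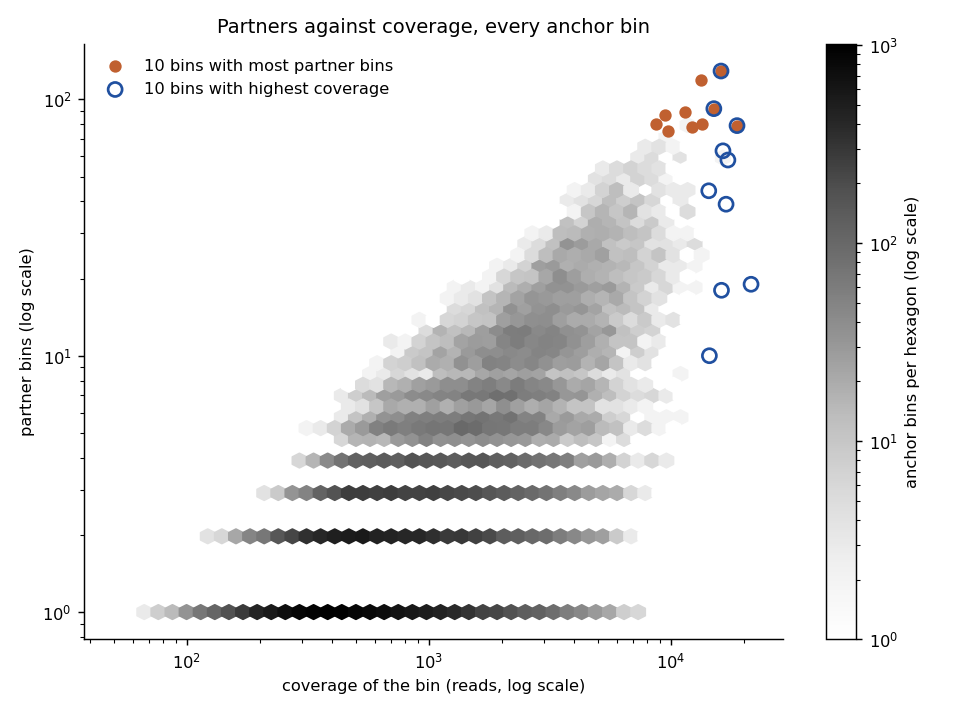
Partner bins against coverage for every anchor bin (reads, both axes log scale; shading gives the number of bins per hexagon), with the 10 bins with most partners as filled points and the 10 with highest coverage as rings. Of the rings, 3 carry a filled point; others lie below them, down to 10 partners at 14451 reads.

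Of the 20 pairs with most contacts, 18 spanned 5 to 12 kb. The pair with most contacts, 468 (427 to 512), joined bins 338 kb apart on chromosome 8 (chr8:19784001-19785000 and chr8:20122001-20123000) and was 18.4 times the median of 25.5 contacts over the 22 pairs of the same 5 kb distance step. Both bins lie outside protein-coding genes, and the first holds a pseudogene, Gm10060. In the same stretch, 13 listed pairs of 126 to 766 kb joined 7 bins at 28 to 468 contacts, and 1 bin had 87.0% of its coverage in listed contacts, against the median of 8.82%. The annotation lists pseudogenes at several of these bins. The mappability columns of the deposited table hold 0 in every row, and whether reads of near-identical copies enter these counts was not tested.

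The second pair, 377 contacts (340 to 417), joined the promoter of Junb, which encodes an AP-1 factor of the activation response, to a bin 7 kb away toward Hook2. The third, 361 contacts (325 to 400), lay in the T cell receptor beta locus. It joined a bin of the constant segment Trbc2 to a bin 6 kb beyond it. Ranks 4 and 5 had 347 contacts each (311 to 386) and joined the bins at chr11:87749001-87750000 and chr11:87750001-87751000 to chr11:87755001-87756000, between Supt4a and Tspoap1 in the neighbourhood of the microRNA gene Mir142, which is active in blood cells. The pairs at Junb, Tcrb and Mir142 had 11.4, 10.9 and 10.5 times the median of their distance step, and the B4galnt1 pair at 30 kb, with 11.7 times, stood second by this ratio. Of pairs between promoters of different genes, 3884 were listed with a median of 30 contacts, and the highest joined Junb and Hook2 with 292 contacts (259 to 327) at 12 kb.

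The longest pairs had contact counts close to the limit of listing. The longest, 874 kb with 22 contacts (13.8 to 33.3), joined Bcl11b, a factor that fixes T cell identity, to a bin outside genes (chr12:107126001-107127000). Next were pairs of Myc, the growth regulator, with bins 822 and 821 kb away at 21 and 25 contacts (chr15:62808001-62809000 and chr15:62806001-62807000). The chromosome 8 stretch gave pairs of 766 kb (132 contacts) and 640 kb (160 contacts). The promoters of Ibtk and Ube2cbp were joined over 715 kb by 22 contacts (13.8 to 33.3), and Satb1 had a pair of 629 kb with 24. Myc also gave ranks 8 to 10, at 579, 577 and 569 kb with 23, 23 and 31 contacts. Of the first 20 longest pairs, 12 were of Myc on chromosome 15, with 20 to 31 contacts, and 3 were on the X chromosome at or near Tmsb4x, an actin-binding peptide gene, with 20 to 35.

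The Myc pairs ran in both directions. The 27 partners of its end bins included 6 at 532 to 548 kb and 3 at 567 to 579 kb toward lower coordinates, with 141 and 79 contacts. Toward higher coordinates, 5 at 182 to 186 kb had 125 contacts, in the noncoding gene Pvt1 that follows Myc. No Myc partner lay in a protein-coding gene. The nearest cluster, at 5 to 14 kb, had 242 contacts.

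There were 680 pairs of at least 200 kb, in 87 separate stretches, and 3 stretches held 51.8% of them. These stretches, and the bins of Tcrb described after them, were chosen for description after their values were seen. The first, at Satb1, held 137 pairs (20.1%) with a median distance of 324 kb. The second, the T cell receptor beta locus Tcrb, held 129 pairs (19.0%) with a median of 426 kb. The third, at Irf2bp2, held 86 (12.6%) with a median of 258 kb. The fourth held 53 pairs at 200 to 332 kb, with a median of 218 kb. It joined the stretch of Irgm1, an interferon-induced GTPase gene, to one that includes Ifi47, another gene of that family, and Zfp62, by up to 86 contacts in 1 pair. Myc (24 pairs), a stretch at Letm2 and Nsd3 (22), the antiproliferative gene Btg1 (21) and Rbpj (20) followed. Tnfaip3, the NF-kB inhibitor A20, was chosen, like Irgm1 and Btg1, after its values were seen; it did not reach 200 kb but had 954 contacts in 17 bins at 150 to 178 kb upstream, more than in any nearer cluster, and its strongest partner bin, with 166 contacts, lay 170 kb away in the noncoding transcript Gm20139.

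The 129 long pairs of Tcrb had 4022 contacts, between 20 and 80 per pair, and joined 27 bins among the V segments to 17 bins from the first J cluster to Trbv31. T cells assemble the expressed beta chain gene by deleting the DNA between 1 V segment and the D and J segments, so that a distance on the reference genome is not the distance in a cell that has rearranged. The distances here, 345 to 500 kb, are those of the reference. At the V side, the bins with most contacts held Trbv12-2 (614 contacts in 15 pairs), Trbv12-1 (549 in 14) and a bin 0.9 kb from Trbv13-2 (440 in 11). Bins with Trbv13-1 (263), Trbv13-3 (242) and Trbv16 (204) had fewer, and that with Trbv2, the farthest, 50. At the other side, most contacts fell on the bins at chr6:41545001-41546000 (740) and chr6:41547001-41548000 (722). The latter holds part of Trbc2, and the bins beside it, which also overlap Trbc2, had 326 and 276. The V-side bins lay between Trbv2 and a bin 1.1 kb from Trbv21. How far these contacts come from rearranged alleles was not tested.

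Merged into loci by joining anchor bins across gaps of up to 10 kb, the library gave 6014 loci, of which 1869 were 1 bin, with a median span of 6 kb. The first 20 held 15.6% of all contacts. The first was the 105 kb around Tnf, from Prrc2a to H2-D1 (chr17:35162001-35267000), with 34335 contacts (33973 to 34700) and 10 protein-coding genes. The Gimap cluster (chr6:48645001-48751000) had 32797 (32443 to 33154) and the T cell receptor alpha locus with Dad1 (chr14:54162001-54240000) 32562 (32209 to 32918), and these intervals overlapped. The locus of Rnf43, Supt4a, Mir142 and Tspoap1 (chr11:87718001-87765000) had 31445 in 47 kb. That of Mapkapk3, Cish and Hemk1 (chr9:107278001-107343000) had 27524, Septin9 (chr11:117291001-117359000) 23604, and Clec2d (chr6:129179001-129243000) 22515. The eighth, with 20521 contacts, holds no protein-coding gene and is the distal stretch that contacts Irf2bp2 (chr8:126797001-126897000). The ninth was B4galnt1 with Os9 (chr10:127100001-127197000, 19216), and rank 10 was the gene-free stretch upstream of Rbpj (chr5:53378001-53452000, 18641). That stretch had more contacts than the Rbpj locus itself, which was 16th with 15350. The loci ranked 11 to 20 had 16198 to 13942 contacts. Among them were Tcrb (16198), Junb (15828), Il4ra with Il21r (15443), Cd8b1 with Cd8a (15425), Dusp2 (15006) and Bach2, which spanned 187 kb, the widest of the 6014.

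Where genes of every kind in the annotation were ranked in place of protein-coding ones, Tcra was first with 31718 contacts (31370 to 32069), and Tcrb had rank 4 with 16490. The long noncoding RNA gene Gm31718, in the stretch that contacts Irf2bp2, had rank 3 with 20493. Linked bins formed 2453 connected sets with a median of 6 bins, and the largest joined 181 bins on chromosome 7 (chr7:126566001-127299000).

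The series is about the Il2ra locus, whose promoter had more contacts than most listed promoters but was not among the first 20. Il2ra encodes the alpha chain of the IL-2 receptor (CD25). Its promoter had 1106 contacts (1042 to 1173) with 32 partners and ranked 236th of the 5095 genes with a listed promoter, and the whole gene had 5837 contacts and ranked 56th. Of the partners, 21 with 755 contacts lay upstream, up to 40 kb, and 11 with 351 contacts downstream inside the gene. The strongest pair, 100 contacts, was 5 kb upstream, and 24 contacts reached the promoter of the neighbour Rbm17, a splicing factor gene. Of the other neighbours, Prkcq, the kinase PKC-theta of T cell receptor signalling, had 1344 promoter contacts (1273 to 1418) and ranked 165th, and 10460 over the gene. Pfkfb3, a regulator of glycolysis, had 271 promoter contacts, Rbm17 135 and Il15ra, the IL-15 receptor alpha chain, 130.

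Lists of genes that fit the tissue were read against the library as a whole, in which 23.3% of genes had a listed promoter and the median listed promoter had 107 contacts. Of 20 genes of T cell identity, 17 had a listed promoter, with a median of 727 contacts and 19 partners. High members were Cd5, a brake on receptor signalling (2352 contacts), and Lef1, a factor of naive cells (1331). Of the CD3 chains that define T cells, Cd3d had 1163 contacts (1097 to 1232), Cd3e 1148 (1083 to 1216) and Cd3g 776 (722 to 833). Cd28, Bcl11b and Ets1 had no listed promoter bin, yet each had pairs elsewhere in the gene, 378, 5513 and 12318 contacts.

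Of 15 genes of CD8 and cytotoxic function, 8 had a listed promoter. Tnf (4891), Cd8b1, the CD8 beta chain (1689), and Nkg7, a granule protein gene (651), were highest. Gzmb, encoding granzyme B, had 632 contacts (584 to 683), and Tbx21, the effector factor T-bet, 635 (587 to 686). Cd8a, Gzma, Gzmk, Prf1, Ifng, Ccl3 and Eomes had none. For Cd8a, the gene body had 2866 contacts, whereas Gzma, Gzmk, Ifng and Eomes had no listed pair anywhere in the gene, and Prf1 had 26 contacts. Both CD8 chains therefore had listed contacts, in the 1 locus that holds them.

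Of 20 activation and checkpoint genes, 18 had a listed promoter, led by Junb (2677 contacts), the glucocorticoid-induced receptor gene Tnfrsf18 (847) and Myc (820). Icos and Nr4a3 had none. The median over the 18 was 328 contacts, with Havcr2 at 31 (21.1 to 44.0) and 1 partner.

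Of 22 cytokine receptor and STAT pathway genes, 20 had a listed promoter, with a median of 724.5 contacts and 17 partners, and 16 lay above the upper quartile of 288. Il4ra (3643), Cish (2802) and Il2rb, the beta chain shared by the IL-2 and IL-15 receptors (2264), were highest. The third IL-2 receptor chain, Il2rg, had 403 contacts (365 to 444). Stat5a and Stat5b, the factors that carry the IL-2 signal, had 1051 (988 to 1117) and 846 (790 to 905). Il6ra and Il18r1 had none. The promoter sum of Il7r, the IL-7 receptor, 1031 contacts, was above its gene sum of 698, since promoter bins can reach beyond the annotated gene.

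Of 12 genes of naive and memory cells, 7 had a listed promoter. Their median, 152 contacts, was low beside that of the other T cell lists, although Satb1 (8505) is the first of all promoters. The chemokine receptor gene Ccr7 (690) and S1pr1, the receptor for exit from lymph nodes (318), followed. Klf2, Id2, Id3, Ccr9 and Itgae had none. Bach2 had 26 promoter contacts (17.0 to 38.1) and 14405 over the gene.

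All 7 survival genes had a listed promoter, led by Pim1 (3722), Mcl1 (891) and Bcl2l1 (819), and Bcl2l11, the pro-apoptotic factor Bim, was lowest with 23 (14.6 to 34.5). Of 19 regulators of NF-kB and other signalling, 18 had one, led by the phosphatase gene Dusp2 (2330), Tnfaip3 (2182) and Traf1 (2138), and 14 lay above the upper quartile. Of 10 housekeeping genes 8 had one, led by Actb (2512), Rplp0 (1235) and Tubb5 (970), with a median of 659 contacts. Gapdh and Hprt had none. The housekeeping median lay within the range of the medians of the 7 lists of T cell function, 152 to 727.

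Most markers of other cells had no listed promoter, but the same held for most genes, since 23.3% of all genes had one. None of 6 NK cell, 8 B cell, 6 erythroid and 10 other tissue markers had a listed promoter. In the myeloid list the share was 40%, and in that of CD4+ and regulatory T cells 60%, both above 23.3%. The lists are small, and no difference from that share was tested. Members without a listed promoter included Ncr1, Klrb1c, Klra8, Klrc1, Klrk1 and Itga2 of the NK cell list. In the B cell list they included Ms4a1, Cd79a, Cd79b, Pax5, Ebf1, Cd22 and Blnk. For erythroid cells they included Gata1, Klf1, Hba-a1, Hbb-bs and Alas2, and for other tissues Alb, Afp, Myod1, Neurod1, Sox2, Nanog, Gfap, Krt5, Krt14 and Ins2. In the body of Cd79a, 717 contacts were nevertheless listed, in Gfap 125, in Klf1 44 and in Klrb1c 27. Of 10 myeloid markers, 4 had a listed promoter, Tyrobp with 136 contacts, Cd68 with 89, Spi1 with 61 and Cd14 with 44, and Lyz2, Csf1r, Itgam, Adgre1, Fcer1g and Mpo had none. Of 5 markers of CD4+ and regulatory T cells, Ikzf2 had 104 contacts, and Cd4 (whose bins are shared with Gpr162) and Zbtb7b had 22 each in 1 pair, while Foxp3 and Cd40lg had none. Genes of the CD3 and CD8 chains of the labelled cell type thus had listed pairs, for Cd8a in the gene body and not at its promoter. In the list of CD8 and cytotoxic function, 53.3% had a listed promoter, below the 60% of CD4+ and regulatory T cells. Whether other cells contribute to the listed pairs was not tested.

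**Figure D5:**
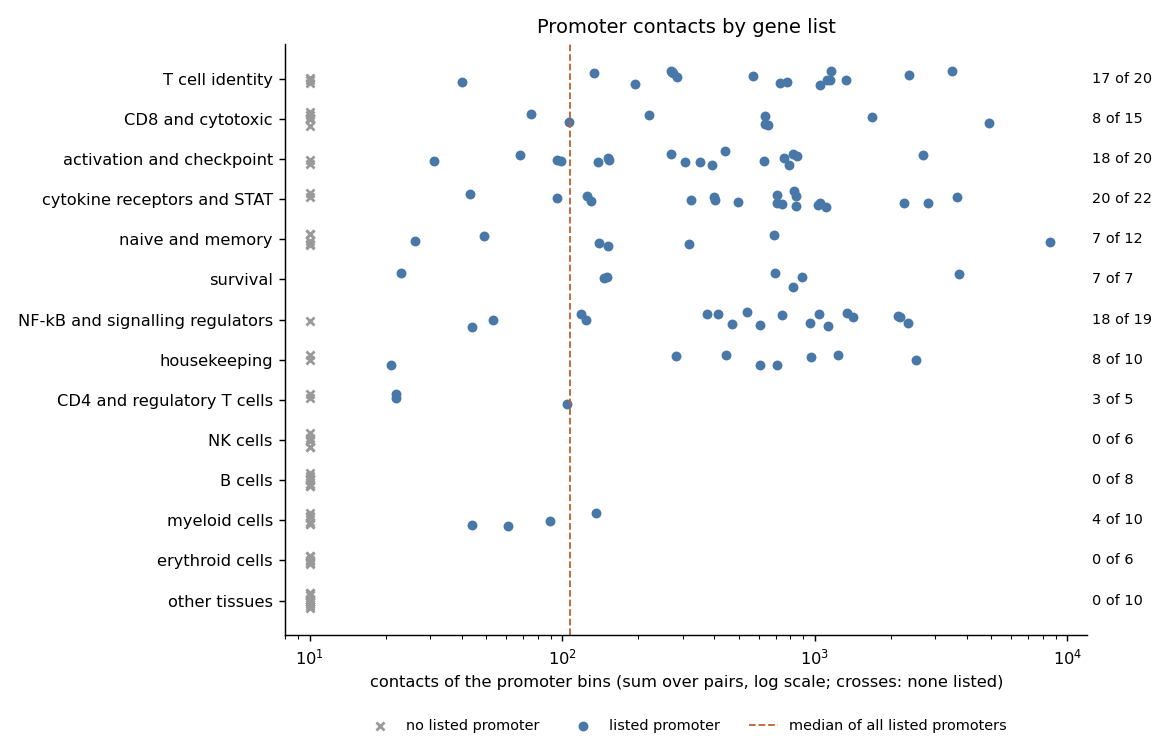
Promoter contacts of every member of the 14 gene lists (points; log scale; sum over pairs), with members without a listed promoter as crosses at the left edge, the number listed at the right and the median of all listed promoters, 107 contacts, as a dashed line. The 7 T cell lists and the housekeeping list each have a member above 1000 contacts, and the 7 listed markers of other cells lie at 136 contacts or fewer.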

How the data were processed

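H3K27ac HiChIP of 1 library was analysed. Per the labels, the cells were wild-type CD8+ T cells without treatment after activation and rest. CASAVA, Bowtie2 2.2.6 and HiC-Pro are named in the submitters' processing notes, with coordinates on mm10. The deposited table holds, per pair of 1 kb bins, the authors' contact count and the coverage of each bin, as counts without normalization, and its layout is that of FitHiChIP, with its version and peak set not given in the sources used here. Its p-value and q-value columns are empty, and the bias columns were not used. The table's name carries a replicate number that the labels do not. The tables of the other HiChIP libraries served only to count pairs listed in any library.

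Contacts were summed over pairs, and partners counted as distinct bins. Genes came from a RefSeq table of GRCm38.p6, the same assembly as mm10, and promoters from its window table. Genes named are the first 10 by each measure, with ranks 11 to 20 as a range, and members of 14 lists (170 genes, all matched). Some of these genes are not reported here. Members and lists were chosen with earlier results of these data known. No test was run, since there is 1 library; intervals are exact Poisson (sums) and exact binomial (shares), at 95%. Python 3.11.15, pandas 2.3.3, numpy 2.4.6, scipy 1.17.1, networkx 3.6.1 and matplotlib 3.10.9 were used, and the summing code was tested on simulated data. Other contact and distance minimums, gene windows and scalings were tried.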

Additional observations from a re-analysis of the deposited data

How the results depend on the processing

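No paired analysis was possible because the group has 1 library and no test was run; for the same reason no replicate could be left out. Of the first 20 genes by contacts, 5 stayed when contacts were taken per kb of gene and 7 when promoter bins replaced the gene. By partners, 5 of 20 stayed per kb. Of the first 20 promoters by contacts, 8 stayed when bins of either gene end were used. With pairs of at least 30 contacts, pairs of at least 10 kb, or weighting by contacts, the median distance was 12, 22 or 13 kb in place of 15 kb. Under the same settings, pairs of at least 100 kb made up 2.205%, 5.57% or 3.03% (3.83% as reported), pairs with a promoter bin 41.9%, 43.2% or 41.0% (39.3%) and pairs with both anchors in 1 gene 32.9%, 25.8% or 32.2% (32.6%). A minimum of 30 contacts kept 5 of the 20 longest pairs, and 4 rather than 7 markers of other cell types then had a listed promoter. Of the other alternatives, 35 moved their result by less than the set limit, which was wide. Among these, lists of the first 20 kept as few as 14 members. Merged loci numbered 7977 or 4231 with gaps of up to 5 or 20 kb bridged (6014 as reported). The widening of promoter windows by 1 kb was chosen after the data were seen and gave 17 T cell identity genes and 8 markers of other cell types. The minimum of 20 contacts limits what can be said of long distances and of weakly covered promoters.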
